A study of Mus musculus with 20 samples.

Results

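Open chromatin that lies far from any protein-coding gene and was found in every library is described here for hematopoietic stem cells (HSCs) of mouse bone marrow. Merging peaks of the 6 deposited ATAC-seq lists wherever they shared 1 bp or more gave 149774 regions. A merged region was kept when it was under 1500 bp wide, held a peak in all 6 lists and lay more than 10 kb from the span of every protein-coding gene. These constitutive narrow intergenic regions numbered 3323, or 17.1% of the 19466 regions found in all 6 lists. They were selected on measured values, namely peak presence and merged width, so their number, width and level of strength are given as descriptions with no test. Tests were made of differences between the groups, in the rank of the members' strength and in RNA. The rule did not use RNA, while strength was read from the same peaks whose presence the rule required.

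The study compared HSCs of C57BL/6 mice aged 8 weeks that carry the Vav-Cre driver, which expresses Cre recombinase throughout the blood system, with either intact Kdm6b (Vav-Cre:Kdm6b+/+, Control) or floxed Kdm6b (Vav-Cre:Kdm6b fl/fl, Kdm6b-KO). The Kdm6b product removes methyl groups from lysine 27 of histone H3, and both groups carry the Cre driver. RNA-seq counts came from 3 Control and 3 Kdm6b-KO libraries, each made from the marrow of 3 male and 3 female mice pooled and sorted for HSCs, and ATAC-seq from 3 libraries titled Control and 3 titled 6bKO, each from 10000 sorted HSCs. The genotype field of the ATAC samples reads wild-type in all 6, so their groups rest on the titles. The samples of each group are described as biological replicates for RNA, and p-values measure the spread between these samples.

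ATAC-seq marks DNA that a transposase can reach, and narrow accessible sites outside genes are commonly enhancers, insulators or promoters of non-coding RNAs. Enhancers bind transcription factors and act on promoters that can lie far along the chromosome, often past other genes, so the nearest gene is a label of position and not a proven target. In blood stem cells, factors such as Runx1, Gata2, Tal1, Lmo2 and the ETS proteins Fli1 and Erg are known to bind many such distal sites together.

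For part of the members the sequence at an annotated start site could be read, because 212 of them (6.38%) overlapped the promoter window of a long non-coding RNA (lncRNA) gene, the 250 bases before to 50 bases after its start in RefSeq, assembly GRCm38.p6. The 5 windows below are shown because their lncRNAs were expressed in these HSCs and their members spanned the range of strength. Capitals mark the only matches found on either strand to the ETS letters AGGAAGT (in Dleu2) and to the MEIS letters TGACAG (in Chaserr, Snhg5 and Jpx), where a match on the other strand appears as its reverse complement.
Chaserr, chr7:73558346-73558645, minus strand: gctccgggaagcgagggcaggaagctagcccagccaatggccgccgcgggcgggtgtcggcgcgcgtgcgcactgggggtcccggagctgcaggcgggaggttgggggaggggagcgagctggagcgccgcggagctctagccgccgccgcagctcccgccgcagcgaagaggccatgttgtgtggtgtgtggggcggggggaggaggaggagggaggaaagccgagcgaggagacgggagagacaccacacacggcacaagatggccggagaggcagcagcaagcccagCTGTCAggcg
Jpx, chrX:103493308-103493607, plus strand: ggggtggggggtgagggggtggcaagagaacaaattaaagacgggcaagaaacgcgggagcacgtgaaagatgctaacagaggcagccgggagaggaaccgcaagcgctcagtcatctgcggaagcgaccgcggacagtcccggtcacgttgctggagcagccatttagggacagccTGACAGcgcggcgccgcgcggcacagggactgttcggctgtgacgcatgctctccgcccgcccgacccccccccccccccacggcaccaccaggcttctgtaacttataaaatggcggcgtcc
4930555A03Rik, chr3:151293912-151294211, plus strand: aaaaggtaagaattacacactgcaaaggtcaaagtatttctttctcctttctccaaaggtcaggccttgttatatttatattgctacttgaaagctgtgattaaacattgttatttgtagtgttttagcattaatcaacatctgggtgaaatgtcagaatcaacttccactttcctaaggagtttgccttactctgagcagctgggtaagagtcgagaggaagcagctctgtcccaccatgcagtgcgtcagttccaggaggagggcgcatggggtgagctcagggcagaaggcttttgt
Snhg5, chr9:88522848-88523147, minus strand: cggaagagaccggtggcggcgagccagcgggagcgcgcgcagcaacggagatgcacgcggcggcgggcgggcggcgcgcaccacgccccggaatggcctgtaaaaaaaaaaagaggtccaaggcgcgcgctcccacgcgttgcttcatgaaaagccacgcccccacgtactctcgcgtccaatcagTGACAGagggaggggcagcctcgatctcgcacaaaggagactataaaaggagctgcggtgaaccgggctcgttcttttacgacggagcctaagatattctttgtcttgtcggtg
Dleu2, chr14:61682324-61682623, minus strand: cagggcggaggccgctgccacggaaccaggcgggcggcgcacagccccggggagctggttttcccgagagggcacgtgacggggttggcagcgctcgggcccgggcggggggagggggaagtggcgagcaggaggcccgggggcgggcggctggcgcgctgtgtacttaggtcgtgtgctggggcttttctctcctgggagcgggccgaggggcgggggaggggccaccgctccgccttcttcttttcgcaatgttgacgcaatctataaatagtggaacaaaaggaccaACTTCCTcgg
The Chaserr window was the richest of the 5 in G and C (72.3%) and held 30 CpG dinucleotides, and the 4930555A03Rik window was the poorest (43.3%, 3 CpG) and held none of the 6 motifs searched.

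The members were a small fraction of the accessible intergenic regions. Of 50972 narrow regions more than 10 kb from protein-coding genes that appeared in any list, 36217 were in 1 list only, 4719 in 2, 2766 in 3, 2096 in 4 and 1851 in 5. The share present in all 6 lists was 6.52%, against 16.1% of the 98535 narrow regions in or within 10 kb of a protein-coding gene. The lists held 44739 to 62125 peaks in the libraries titled Control and 53692 to 69729 in those titled 6bKO, and how deeply these libraries were sequenced is unknown here. Between 4.81% (6bKO 3) and 7.55% (Control 2) of the peaks of a list fell in members.

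The members were narrow and their summits were close together. The median width of a merged member was 581 bp (quartiles 480.5 and 716 bp), less than the 794 bp of narrow six-list regions at protein-coding promoters and close to the 611 bp of those in gene bodies and the 575 bp of those within 10 kb of a gene. In 3119 members (93.9%) each list contributed a single peak, against 91.6% of regions in gene bodies, 94.5% near genes and 84.6% at promoters. The summits of the 6 libraries lay within 100 bp of one another in 1813 members (54.6%), with a median range of 93 bp. The same share was 53.5% in gene bodies, 57.0% near genes and 48.8% at promoters, with median ranges of 95, 89 and 103 bp.

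All chromosomes held members, from 3 on chromosome Y to 266 on chromosome 2. As a share of the regions found in all 6 lists, members were fewest on chromosomes 7 (11.0%) and 11 (11.8%) and most on chromosome 13 (25.5%), leaving aside Y with 3 of 5.

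Strength was read as the fold enrichment of the highest peak of a region, the authors' own ratio for that peak. The median over members was 7.44, 7.61 and 9.51 in the libraries titled Control and 10.4, 11.7 and 15.2 in those titled 6bKO. Such values move with the depth and background of each list, so regions were ranked within each library among the same 19466 regions, where 100 is the strongest. Because the ranks of all regions sum to the same total in every library, 1 class can rise only where another falls.

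The members' median rank was 50.6, 41.7 and 43.2 in the libraries titled Control and 50.9, 51.7 and 54.9 in those titled 6bKO. The groups did not overlap, but Control 1 (50.6) lay just below the lowest 6bKO library (50.9). The means were 45.2 ± 4.74 and 52.5 ± 2.08 (SD, n = 3 each), a difference of 7.32 percentile points with a two-sided exact permutation p of 0.1, the smallest that 3 against 3 libraries allow, so the design cannot reach 0.05. At promoters the difference had the opposite sign, with mean ranks of 64.8 ± 6.00 in Control and 55.2 ± 1.17 in 6bKO (SD, n = 3 each) and the same exact p of 0.1. Mean ranks were 42.8 and 46.9 for regions in gene bodies and 38.2 and 44.0 for those near genes, in Control and 6bKO, each again with an exact p of 0.1. The part that library composition has in these ranks was not tested: the share of a list's peaks at protein-coding promoters was 15.9%, 18.1% and 14.7% in the libraries titled Control and 12.1%, 16.2% and 13.7% in those titled 6bKO.

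**Figure D1:**
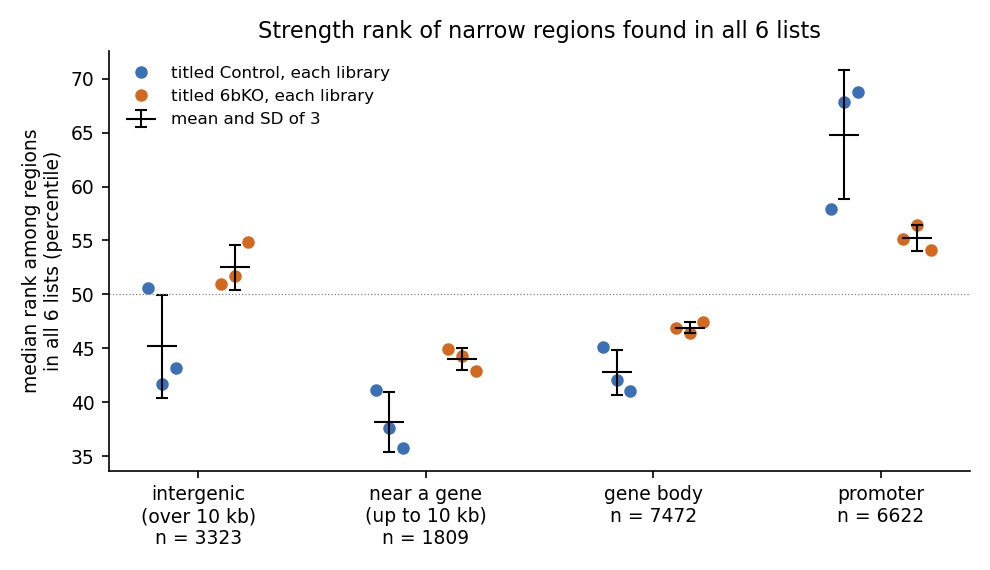
Median rank of fold enrichment (percentile among the 19466 regions in all 6 lists) for each class of narrow region, with 1 point per ATAC library, blue for libraries titled Control and orange for those titled 6bKO, and black bars for mean and SD of 3. Intergenic members lay at 41.7 to 50.6 in Control and 50.9 to 54.9 in 6bKO, and promoter regions, with means of 64.8 and 55.2, differed in the opposite direction.

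Single members were compared by whether the ranks of the 3 libraries of each group overlapped. Of all 19466 regions, 11.8% were higher without overlap in the libraries titled 6bKO and 13.3% were lower. Among members 601 were higher (18.1%) and 282 lower (8.49%). Among promoter regions 4.26% were higher and 20.5% lower, the reverse order. Across members, ranks of any pair of libraries correlated with a Spearman rho of 0.486 to 0.781 (n = 3323 regions that share each library's depth and composition, a description with no p).

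The 10 members of highest rank had median ranks of 99.9 or higher, and 9 of them were 177 to 478 bp wide, narrower than the median member, while the tenth was 725 bp wide. The strongest, at chr10:72297107-72297479, had fold enrichments of 44.5, 46.8 and 41.6 in the libraries titled Control and 44.4, 38.6 and 45.4 in those titled 6bKO, and its 6 summits lay within 2 bp. It was 357 kb from Zwint, which encodes a kinetochore protein and was its nearest expressed gene. The next, chrX:170881205-170881381, was the narrowest member at 177 bp, had folds of 28.8 to 48.6 and lay 890 kb from Mid1, a ubiquitin ligase gene. The third, chr17:13305883-13306322, lay in the lncRNA gene Gm36684, 288 kb from Sod2, the mitochondrial superoxide dismutase gene, with folds of 30.5 to 38.6.

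The other members of the 10 were closer to their nearest expressed genes, at 15.4 to 231 kb. The one at chr8:83756696-83757063 lay 15.4 kb from Adgre5, which encodes the leukocyte adhesion receptor CD97, with folds of 27.9 to 36.2. The one at chr9:110281170-110281447, 22.9 kb from the elongator subunit gene Elp6, lay in Gm39429 and the annotated microRNA gene Mir6236, and its folds were 35.7, 38.4 and 33.0 in Control and 17.2, 24.4 and 37.5 in 6bKO, which overlapped. The remaining 5 had Mex3c, Lyst, Dhrs4, Frmd4a and Tespa1 as nearest expressed genes. Repeats and high-copy sequence were not annotated here, so how many of the strongest members lie in such sequence was not examined.

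At the limits of the selection, the widest members were 1485 and 1473 bp with median ranks of 27.1 and 18.4, and the 2 intergenic six-list regions just too wide were 1518 and 1535 bp with ranks of 34.0 and 44.7. The members closest to a gene lay 10004 bp from Krr1 and 10014 bp from Ccl25 (ranks 26.7 and 24.2). The regions just too close lay 9992 bp from Xcr1 and 9974 bp from Vps45 (ranks 10.8 and 52.3). In all, 16 intergenic regions in all 6 lists were left out for width alone.

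Members lay a median of 51.7 kb from the next member (quartiles 12.3 and 238 kb). Of the 3323, 1126 had another member within 20 kb (33.9%), a description with no test, since neighbouring members count each other. The same share among other narrow six-list regions, each within its own class, was 38.9% in gene bodies, 22.2% at promoters and 21.4% near genes. These classes held 7472, 6622 and 1809 regions, and the shares were not adjusted for class size. Counting neighbours of any class found in all 6 lists, 43.8% of members had one within 20 kb. That was the lowest share of the classes, which had 46.4% at promoters, 55.8% in gene bodies and 69.3% near genes.

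Linked at 20 kb, the members formed 353 pairs, 79 groups of 3, 27 of 4, 10 of 5, 3 of 6 and 1 of 7, and 2197 stood alone. The 120 clusters of 3 or more held 420 members (12.6%). Clustered members were not the stronger ones: the median rank was 51.0 for members alone, 42.5 for those in pairs and 41.6 for those in clusters of 3 or more.

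The largest cluster, chr6:31072102-31126986, held 7 members in 54885 bp, 175 to 229 kb upstream of Copg2, a coatomer subunit gene whose RNA was at 65.9 CPM in Control against 65.5 in Kdm6b-KO (CPM are gene counts scaled to library size). Its members differed in strength from a median rank of 7.96 to 94.1, the strongest being the one farthest from Copg2, with folds of 16.9, 16.6 and 19.6 in Control and 19.1, 20.2 and 21.6 in 6bKO. The cluster at chr17:83956708-84004616 held 6 members 108 to 155 kb upstream of Haao, a gene of tryptophan catabolism. On its other side lies Zfp36l2, an RNA-binding regulator of blood progenitors, which was the nearest expressed gene to 8 members. The cluster at chr1:86472118-86509872 held 6 members 16.7 to 53.6 kb upstream of Ptma, which encodes the abundant nuclear protein prothymosin alpha. It contained 1 of the weakest of all members, with a median rank of 0.519 and folds of 3.16 to 5.36. The last 2 of the 5 were a 6-member cluster at chr5:96867257-96919607 next to Anxa3, a phospholipid-binding annexin gene, and a 5-member cluster at chr9:60991367-61022261 downstream of Uaca, whose product regulates apoptosis.

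**Figure D2:**
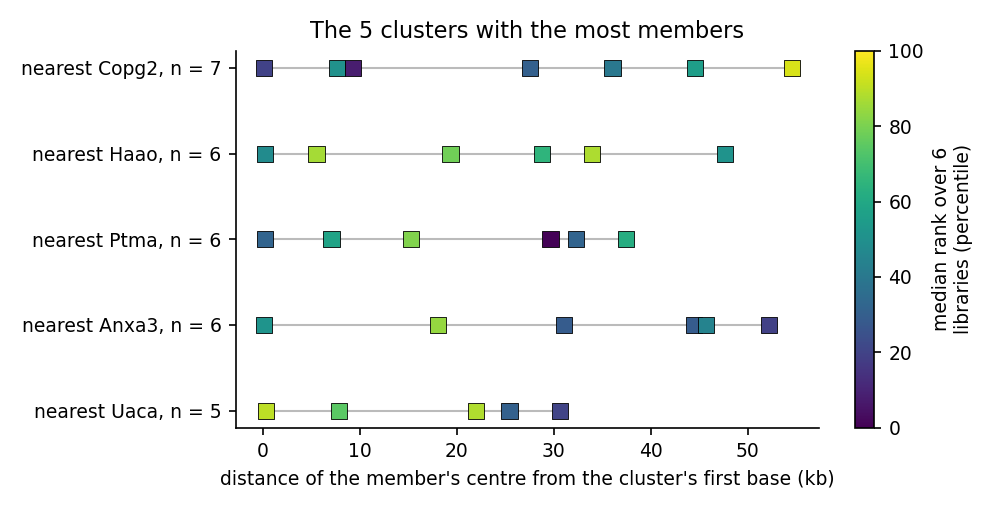
Map of the 5 clusters with the most members, each drawn as a line from its first member, with squares at the members' centres (kb from the first base) coloured by median rank over 6 libraries. Weak and strong members occur side by side within a cluster, as in the Copg2 cluster with ranks of 7.96 to 94.1.

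Kdm6b itself had 92.0, 282 and 221 CPM in Control against 142, 202 and 191 in Kdm6b-KO (log2 fold change -0.15, edgeR adjusted p = 0.882). Whole-gene counts include exons outside a floxed part, so this check does not settle the labels. Control libraries held 6793873 to 13797890 gene counts and Kdm6b-KO libraries 8683106 to 19336121, where 3 counts stand for 0.148 to 0.461 CPM. The HSC markers Kit, Ly6a, Slamf1, Procr, Hlf and Mecom were present at 49.7 CPM or more in all 6 RNA libraries, Cd48 was at 4.60 to 16.7 CPM and Cd3e at 0.0874 CPM or less. Markers of myeloid progenitors varied between libraries, with Mpo at 357 to 773 CPM in Control against 1094, 55.9 and 20.3 in Kdm6b-KO, and Col1a1, a stromal gene, reached 55.3 CPM in Control 2. The part of such cells in the RNA results was not tested.

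A protein-coding gene was counted as expressed when it had a position and passed the filter on low counts, which 12199 did. Members lay a median of 38.2 kb from the nearest protein-coding gene (quartiles 19.9 and 88.5 kb) and 50.3 kb from the nearest expressed one (23.7 and 120.5 kb). More than 100 kb separated 994 members (29.9%) from any expressed gene, more than 200 kb 473 (14.2%) and more than 1000 kb 34. The nearest protein-coding gene was itself expressed for 2432 members (73.2%), while 55.7% of the 21887 protein-coding genes with a position were.

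**Figure D3:**
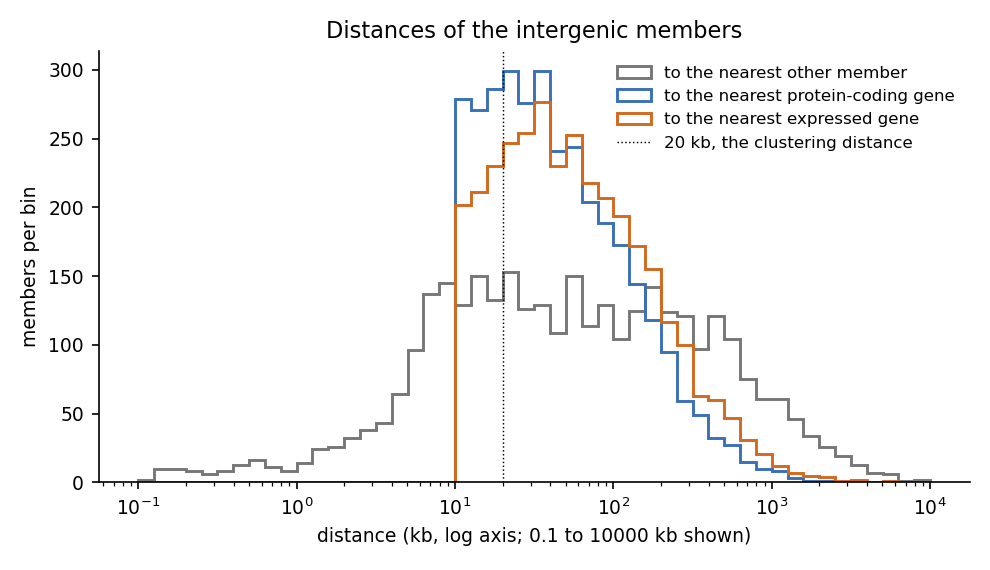
Histogram of the distances from each member to the nearest other member (grey), protein-coding gene (blue) and expressed protein-coding gene (orange), in kb on a log axis, with members per bin on the vertical axis. The gene distances start at the 10 kb limit of the selection, and the median is 38.2 kb to a protein-coding gene and 50.3 kb to an expressed one.

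The density of members followed the expression of the nearest protein-coding gene. For this, all sequence more than 10 kb from protein-coding genes was assigned to its nearest protein-coding gene in bins of 1000 bp. Sequence nearest to a gene that was not expressed made up 782 Mb (55.6%) and held 891 members, 1.14 per Mb. Sequence nearest to expressed genes held 3.00 members per Mb for the lowest of 4 equal classes of mean CPM, 3.72 and 4.05 for the middle classes and 4.94 for the highest. When the classes were drawn from each RNA library on its own, these values ranged from 2.93 to 3.17, 3.52 to 4.06, 3.74 to 4.29 and 4.81 to 5.18 members per Mb, so the middle classes overlapped and the lowest and highest stood apart from them. This is a description with no test, and gene spacing, which differs between the levels, was not adjusted for.

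**Figure D4:**
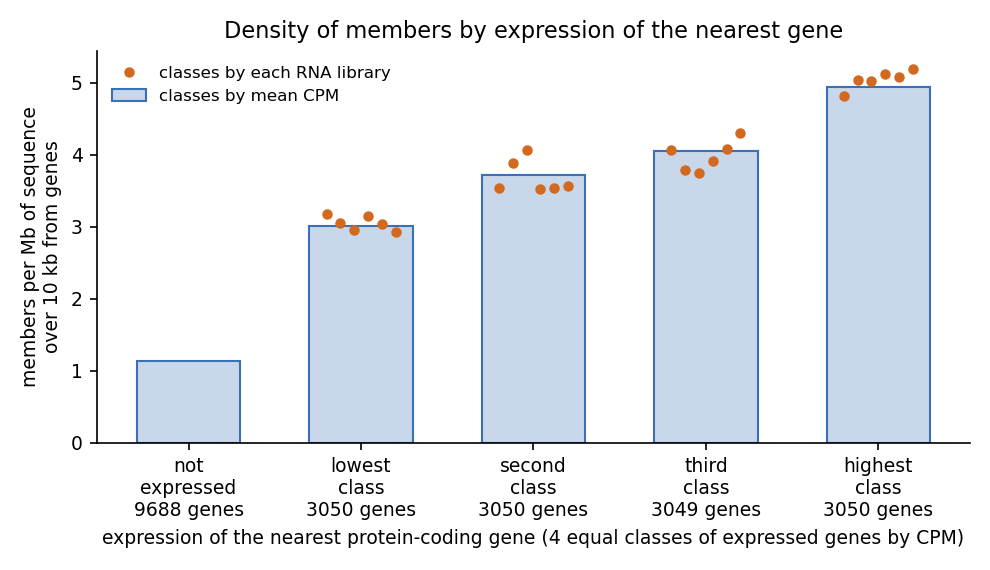
Members per Mb of sequence more than 10 kb from protein-coding genes, by expression of the nearest protein-coding gene. Bars use 4 equal classes of mean CPM over the 12199 expressed genes and points the same classes drawn in each of the 6 RNA libraries. The density was 1.14 per Mb next to genes that were not expressed and 4.94 per Mb next to the highest class.

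The members had 1943 nearest expressed genes, 15.9% of those expressed. Most of these, 1217, were nearest to 1 member, and 79 genes with 5 or more members took 474. Median expression of the nearest genes was 34.2, 30.2 and 31.6 CPM in the Control libraries against 33.6, 35.4 and 34.8 in Kdm6b-KO. Over all expressed genes it was 29.9, 29.2 and 31.0 CPM in Control against 31.3, 33.0 and 33.0 in Kdm6b-KO. Genes with 5 or more members had medians of 39.3 to 47.3 CPM.

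The 10 genes with the most members were Id2, Haao and Rybp with 10 each, Sox4 with 9, and Rplp1, Zfp36l2, Zfp386, Syk, Tedc1 and Hes1 with 8 each. Id2, an inhibitor of E-protein transcription factors, had 10 members, all upstream at 23.2 to 207 kb. The closest of them ranked 92.4, 86.3 and 91.7 in the libraries titled Control and 82.7, 87.1 and 92.2 in those titled 6bKO, and the next, 68.6 kb upstream, was among the weak ones with ranks of 0.411 to 29.4. Id2 had 63.9, 46.1 and 35.4 CPM in Control against a mean of 31.1 ± 1.78 in Kdm6b-KO (SD, n = 3), groups that did not overlap but did not pass the test (log2 fold change -0.64, SE 0.23, edgeR adjusted p = 0.232). Of the named genes that were not called, Cdk6, Jun, Btg2, Zwint and Uaca also had RNA groups without overlap. The share of all expressed genes separated in this way was not counted, so such separation is only described, here and below.

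Sox4, a transcription factor of progenitors with 267 ± 48.3 CPM in Control (SD, n = 3), had 9 members, all downstream in a stretch of 109 to 530 kb. They ran from a median rank of 12.7 for the farthest to 97.1 for the one 436 kb away, chr13:28512493-28513232, whose folds were 13.9, 18.8 and 16.9 in Control and 21.3, 23.9 and 24.6 in 6bKO. Syk, a kinase of immune receptor signalling, had 8 members, 7 of them upstream and as far as 346 kb. Rybp, a subunit of variant Polycomb repressive complexes, had 10 at 54.4 to 237 kb on both sides, with CPM of only 5.39 in Control and 6.29 in Kdm6b-KO. Rplp1, a ribosomal protein gene of 258 CPM in Control, had 8 members 30.5 to 247 kb away with median ranks of 11.1 to 93.2, and Hes1, a target gene of Notch signalling, had 8 members on both sides, 25.7 to 119 kb away, at 1.69 CPM in Control against 2.65 in Kdm6b-KO.

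Zfp386 and Tedc1, with 8 members each, flank the immunoglobulin heavy chain locus. V, D and J segments are not typed as protein-coding in the annotation, so 26 members lay inside antigen receptor loci: 15 in Igh, 6 in Tcra (2 of them also within Tcrd), 2 in Tcrb, 2 in Tcrg and 1 in Igk. Those in Igh had median ranks of 23.1 to 96.2. Without these loci, an alternative chosen after the data were seen, 3297 members remained.

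Of the 39 expressed genes in a list of stem cell transcription factors, 25 (64.1%) were nearest expressed gene to 1 or more members, 73 members in all. Over all expressed genes the share was 15.9%. The length of intergenic sequence beside each gene was not adjusted for in this share or in those of the other lists. For the lists, all intergenic sequence was assigned to its nearest expressed gene, so sequence beside genes that were not expressed counts too. On that scale the listed genes had 4.83 members per Mb, against 2.36 over all expressed genes, which is lower than the densities by class because those used the nearest protein-coding gene of any kind. In RNA 1 of the 39, Nfia, was called lower in Kdm6b-KO (0.123% of all expressed genes were) and none higher. The lists were chosen with earlier results of these data known, so 1 call shows nothing about the list. Runx1, a master regulator of blood stem cell emergence, had 7 members, all upstream at 42.4 to 371 kb. The one 57.7 kb upstream, chr16:92883753-92884431, ranked 88.2, 84.6 and 75.1 in the libraries titled Control and 57.4, 52.3 and 64.2 in those titled 6bKO, lower without overlap. Runx1 RNA was 102 ± 30.5 CPM in Control against 110 ± 12.0 in Kdm6b-KO (SD, n = 3 each), which overlapped. Lmo2, a bridging protein of the Tal1 complex, had 6 members within 63.6 kb, of median ranks 8.82 to 54.0, and Cebpb, a myeloid bZIP factor of 1.47 CPM in Control, had 6. Bcl11a, a zinc finger repressor, had 4.

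Of the 4 lists, that of receptors and surface proteins had the most members per Mb, with no test of the difference. Of 23 expressed genes in that list 11 (47.8%) had members, 32 in all or 9.83 per Mb. Kit, the receptor of stem cell factor and a marker of the sort, had 5 members. The strongest lay 73.8 kb downstream at chr5:75730484-75731252, with folds of 12.4, 16.5 and 18.3 in Control and 16.9, 21.2 and 23.6 in 6bKO and ranks of 88.4 to 95.4, which overlapped. Kit RNA was 781, 2169 and 1865 CPM in Control against 995 ± 156 (SD, n = 3) in Kdm6b-KO. Ptprc, which encodes the pan-leukocyte phosphatase CD45, had 5, and Cd47, Cd34, Tgfbr2 and Il6st had 3 each. None of the 23 receptor genes was called between the groups, which with 0.246% and 0.123% called over all expressed genes says nothing particular to them.

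Genes of cell cycle and survival had members for 6 of 15 (40.0%), 19 members or 5.50 per Mb, and none of the 15 was called, a list too short to read against the same shares. Bcl2l11, which encodes the apoptosis activator Bim, had 7, all downstream at 17.1 to 177 kb. Ccnd2 had 4, Ccnd1 3, Cdk6 2, Bcl2 2 and Mcl1 1. Cdk6, a kinase that drives HSCs out of quiescence, had both members upstream, at 142 and 188 kb with median ranks of 73.3 and 84.0. Its RNA was 1541, 2384 and 1215 CPM in Control against 859 ± 92.2 (SD, n = 3) in Kdm6b-KO, without overlap but short of the threshold (edgeR adjusted p = 0.117). How many expressed genes separate in this way was not counted.

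Immediate-early genes, which are induced within minutes of a stimulus, had members for 14 of 23 expressed genes (60.9%), 52 members or 8.49 per Mb. In RNA 3 of the 23 were called higher in Kdm6b-KO and none lower, where 0.246% of all expressed genes were higher and 0.123% lower. The list was chosen with earlier results of these data known, so this count is a description and no test of the list. Fos was the called gene that was nearest to members. Btg1 had 6 members, and Jun, Btg2 and Zfp36l1 had 4 each. Jun, the partner of Fos in AP-1, had all 4 upstream at 30.1 to 251 kb. Its RNA was 27.2, 5.72 and 15.1 CPM in Control against 73.5 ± 34.1 (SD, n = 3) in Kdm6b-KO, without overlap, and it did not pass the test (edgeR adjusted p = 0.193). The share of expressed genes without overlap in RNA was not counted.

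Between Control and Kdm6b-KO HSCs, 7 of the 1943 nearest genes passed edgeR's quasi-likelihood test at a Benjamini-Hochberg adjusted p under 0.05. Of these, 5 were higher in Kdm6b-KO (0.257%, against 0.246% of all expressed genes with a position) and 2 lower (0.103%, against 0.123%). These shares are near the background, and at an unadjusted p under 0.05 the share was 16.4% of nearest genes and 15.2% of all expressed genes. The median log2 fold change was 0.0081 for nearest genes and 0.036 for all expressed genes. The count depends on single RNA libraries and on the test. It was 80 without Control 1, 24 without Control 3, 3 without Kdm6b-KO 2, 2 without Kdm6b-KO 3 and 71 by DESeq2, and calls over all 15185 tested genes moved with it, from 70 to 519, 161, 24, 20 and 433.

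Fos, which pairs with Jun proteins to form AP-1, had 15.2, 5.08 and 4.60 CPM in Control against 78.3, 139.2 and 85.5 in Kdm6b-KO (log2 fold change 3.65, SE 0.50, edgeR adjusted p = 0.0323). The groups stood far apart, and the call was lost without Control 2 (0.0935) or Kdm6b-KO 3 (0.0982). It had 4 members, at 43.0 and 15.8 kb upstream and 63.7 and 94.1 kb downstream. The one 15.8 kb upstream, chr12:85457572-85458073, ranked 51.9, 31.8 and 47.3 in the libraries titled Control and 74.0, 86.9 and 93.4 in those titled 6bKO. The farthest, chr12:85571328-85571796, ranked 2.15, 16.8 and 10.6 in Control and 41.6, 54.3 and 53.6 in 6bKO, so both were higher without overlap. The strongest, 63.7 kb downstream, ranked 80.1 to 92.5 in Control and 91.5 to 98.5 in 6bKO, and the member 43.0 kb upstream 10.9 to 48.1 and 44.9 to 54.1, which overlapped.

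Ifi44l, an interferon-induced gene, was nearest to 1 member 181 kb upstream. It had 1, 1 and 0 counts in Control and 452, 264 and 292 in Kdm6b-KO, a ratio of summed counts of 346 after scaling (exact 95% interval 95.7 to 2865, counting error only, edgeR adjusted p = 6.93e-05). Its member, chr3:151943514-151943978, ranked 78.8, 43.3 and 39.6 in the libraries titled Control and 97.9, 97.3 and 95.4 in those titled 6bKO. Klhl42, a substrate adaptor gene of a ubiquitin ligase, had 48.5, 32.7 and 31.6 CPM in Control against 140 ± 11.7 (SD, n = 3) in Kdm6b-KO (log2 fold change 1.90, SE 0.21, edgeR adjusted p = 0.000429). Its member, 124 kb away, ranked 99.8, 99.8 and 81.9 in Control and 14.6, 94.2 and 23.2 in 6bKO, which overlapped and varied widely within the second group. Both calls held in the 9 alternatives run for each gene.

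Slc39a11, a zinc transporter gene, rose from 21.7 ± 2.22 to 50.6 ± 1.45 CPM (SD, n = 3 each, log2 fold change 1.22, edgeR adjusted p = 0.0136), a call lost without Kdm6b-KO 2 (0.107) or Kdm6b-KO 3 (0.105). It had 4 members downstream at 70.4 to 229 kb, among them the very weak chr11:113172548-113173335 with folds of 2.97 to 4.60. Emp1, an epithelial membrane protein gene, had 4 counts in each Control library and 62, 27 and 54 in Kdm6b-KO (log2 fold change 3.00, edgeR adjusted p = 0.0451), with members 38.1 kb upstream and 67.3 kb downstream. Its call was lost in 6 of 9 alternatives, with the replicate block (0.0575) and without Control 2 (0.130), Control 3 (0.0889), Kdm6b-KO 1 (0.152), Kdm6b-KO 2 (0.148) or Kdm6b-KO 3 (0.119).

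Nfia, a transcription factor of the nuclear factor I family, fell from 1278, 1313 and 912 CPM in Control to 490 ± 90.8 CPM (SD, n = 3) in Kdm6b-KO (log2 fold change -1.25, SE 0.24, edgeR adjusted p = 0.0303). The call was lost without any 1 of the Kdm6b-KO libraries (0.0512, 0.188 and 0.288). It had 1 member 90.7 kb upstream, higher in rank in 6bKO without overlap (34.5, 19.2 and 4.44 against 70.4, 34.6 and 44.5), and 1 member 71.0 kb downstream that overlapped. Lyrm7, a mitochondrial assembly factor gene, fell from 12.4 ± 1.95 to 3.68 ± 1.05 CPM (SD, n = 3 each, log2 fold change -1.76, edgeR adjusted p = 0.0361), lost with the replicate block (0.0533) and without Control 2 (0.159), Kdm6b-KO 2 (0.176) or Kdm6b-KO 3 (0.269). Slc39a11 and Lyrm7 both lie on chromosome 11, the chromosome of Kdm6b. The part of this shared chromosome in their calls was not tested. Of the 15 members nearest to the 7 called genes, 4 were higher in rank in 6bKO without overlap and none was lower, where 18.1% of all members were higher and 8.49% lower (11.8% and 13.3% of all six-list regions), so counts this small show nothing particular to these genes.

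**Figure D5:**
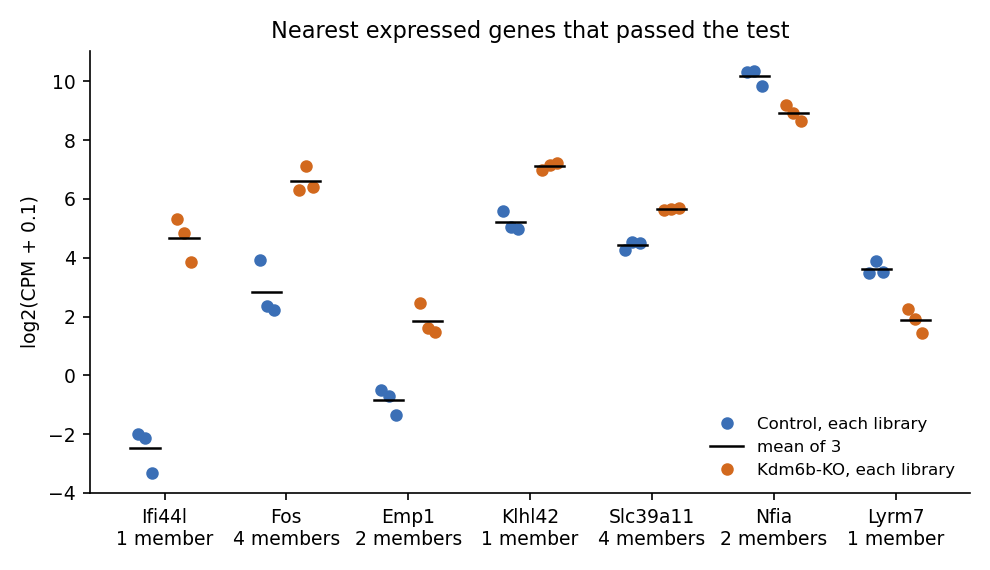
RNA level of the 7 nearest expressed genes that passed the test, as log2(CPM + 0.1) with 1 point per RNA library, blue for Control and orange for Kdm6b-KO, and a black line at the mean of 3. The groups do not overlap for any of the 7, and Ifi44l rests on 1, 1 and 0 counts in Control.

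Annotated genes not typed as protein-coding lay under 1009 members (30.4%), and 2314 lay in no annotated gene of any kind. Most were lncRNA genes (919 members, 27.7%), and pseudogenes and V segments (14 members) were also among them. The 212 members over a lncRNA promoter window were wider (median 683.5 against 575 bp) and ranked higher (median 54.7 against 47.4) than the other members. They covered 243 windows of 220 lncRNA genes, of which 99 had a row in the count files and 52 of these were expressed (52.5%). Of distant lncRNA genes without a member at a promoter, 79 of 1356 with a count row were expressed (5.83%). RNA was not used in choosing the members, but windows of 1 gene can overlap, so these shares are given with no test.

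None of the 52 expressed lncRNAs was called between the groups (0.461% of all 15185 tested genes were, so none in 52 is not a result), and their lowest edgeR adjusted p was 0.158. Chaserr, which restrains the neighbouring Chd2 gene, had a member of rank 97.1, 16.6 kb from Chd2, with folds of 14.1, 20.2 and 21.8 in Control and 20.5, 23.8 and 24.4 in 6bKO. Its RNA was 227, 452 and 258 CPM in Control against 192, 239 and 133 in Kdm6b-KO, which overlapped. Dleu2, the host of miR-15a and miR-16-1, was the most expressed of them, at 162, 588 and 424 CPM in Control against 178, 163 and 134 in Kdm6b-KO, although its member ranked only 23.6. Snhg5, a snoRNA host gene, had 104 to 125 CPM in Control against 114 to 131 in Kdm6b-KO and a member of rank 70.3. Jpx, an activator of Xist, had a member of rank 90.1 at 10.8 to 22.6 CPM in Control, and Firre, an X-linked RNA of nuclear architecture, one of rank 68.8 at 63.0 to 133 CPM. The member at 4930555A03Rik ranked 88.4, with RNA at 33.8 to 39.6 CPM in Control against 39.8 to 46.1 in Kdm6b-KO.

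Motif matches in the lncRNA windows at members were set beside 5756 other lncRNA windows more than 10 kb from protein-coding genes and beside all 32851 promoter windows in the table, on both strands. The RUNX letters TGTGGTT were in 13.2% of windows at members, 6.62% of the other distant lncRNA windows and 5.27% of all windows. The ETS letters AGGAAGT were in 16.05%, 10.5% and 9.35%, and a match to the CTCF consensus in 2.88% (7 windows), 0.365% and 0.557%. The remaining motifs differed less: AP-1 (TGANTCA) 11.5%, 10.9% and 7.81%, MEIS (TGACAG) 22.2%, 20.8% and 19.2%, and the letters AGATAAG, bound by Gata2 and related factors, 3.29%, 4.59% and 3.04%. The windows at members also had more G and C (median 53.0%) than the other distant windows (46.3%) and were close to all promoters (52.7%). The 243 windows at members belong to 220 lncRNA genes and some overlap, so 1 match can be counted more than once. A match is a run of letters and not a bound site, and none of these shares was tested.

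MicroRNAs were a small part: 17 hairpins were found within 5 kb of 11 members. The annotated gene Mir6236, which 1 of the strongest members overlapped, was not among the 17, so these counts are minimums. The member chr14:115040180-115041253, 2.4 to 3.2 kb upstream of the 6 hairpins of the miR-17-92 cluster, had a median rank of 26.7, with folds of 6.02, 7.49 and 9.99 in Control and 6.33, 8.16 and 6.91 in 6bKO. These microRNAs promote proliferation and survival of blood progenitors, and are shown with the seed (bases 2 to 8) in capitals because miR-17-5p and miR-20a-5p share 1 seed and miR-19a-3p and miR-19b-3p another.
mmu-miR-17-5p: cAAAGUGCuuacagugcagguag
mmu-miR-20a-5p: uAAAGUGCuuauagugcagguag
mmu-miR-19a-3p: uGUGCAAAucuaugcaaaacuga
mmu-miR-19b-3p: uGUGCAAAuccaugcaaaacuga
mmu-miR-92a-3p: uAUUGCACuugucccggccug
Their host transcript Mir17hg had 37.0, 57.8 and 44.6 CPM in Control against 29.0, 17.3 and 25.5 in Kdm6b-KO, lower without overlap and short of the threshold (log2 fold change -0.95, SE 0.25, edgeR adjusted p = 0.114). How many tested genes separate in this way was not counted. A second member, chrX:53056818-53057851, lay 2.5 to 2.8 kb upstream of Mir322 and Mir503 with a median rank of 11.4. Both encode guides of the extended miR-16 family that target cell cycle genes, shown for how little their seeds differ.
mmu-miR-322-5p: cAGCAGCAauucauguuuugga
mmu-miR-503-5p: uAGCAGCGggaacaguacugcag
Mature microRNAs were not measured in these libraries.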

How the data were processed

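RNA was counted in 6 libraries and open chromatin mapped in 6, and the other 8 of the 20 samples, of chromatin immunoprecipitation and input, were not analysed here. The deposited RNA values are unnormalized counts of reads for each Ensembl gene. Per the submitters' processing notes, the RNA tools were HTSeq 0.8.0, STAR 2.0.4, Partek 6.6 and featureCounts 1.4.5, and the ATAC tools BWA 0.7.16a, cutadapt 1.16 and MACS2, whose roles are not stated. The strand setting is not given in the sources used here; reads of overlapping genes may be mixed. The deposited peak lists, 1 per library, give for each peak the authors' fold enrichment as a ratio, its p and q as −log10 values (lowest −log10 q 2.00) and the authors' summit offset.

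The members, gene lists and rule for named items were chosen with earlier results of these data known. Peaks were merged in pandas 2.3.3, and distances were taken to gene spans of GRCm38.p6, the assembly of mm10. Of 49671 gene IDs 49326 matched a symbol, and 89.8% of tested genes had a position. The gene test was edgeR 4.0.16 under R 4.3.3 (filterByExpr, TMM, robust glmQLFit and glmQLFTest on genotype, two-sided, Benjamini-Hochberg over 15185 genes, threshold 0.05). The SE is the size of the change on the log2 scale over the root of F. CPM use TMM-scaled library sizes, rows that name no gene being left out. An exact permutation test compared library means, and both scripts were tested on simulated data. Named genes were the 10 with the most members, all called nearest genes, up to 6 per list by number of members, and the nearest expressed gene of each named region. Named regions were the 10 strongest members, the 5 largest clusters, the 2 on each side of each limit and the strongest in non-coding genes. The lncRNAs and microRNAs printed were chosen after their values were seen. The planned motif search under all members was replaced by one in RefSeq promoter windows. Alternatives changed the merging, the peak threshold, the limits, the tests and the libraries used.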

Additional observations from a re-analysis of the deposited data

How the results depend on the processing

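The number of members was 1374 when the distance limit was 50 kb and 1560 when every annotated gene bounded the distance, and between 3342 and 3952 when each ATAC library in turn was left out of the required lists. The share with another member within 20 kb was 30.4% with a −log10 q of at least 5, 28.7% with the 50 kb limit, 25.3% with every annotated gene, 21.4% at a gap of 10 kb, 49.3% at a gap of 50 kb, and 33.8% to 37.8% without 1 ATAC library. Without the antigen receptor loci, added after seeing the data, it was 33.9%. The rank difference was 5.68 to 8.56 without 1 ATAC library (exact permutation p of 0.1 to 0.3), and no setting gave the opposite sign. With all 6 libraries it was 5.80 when ranked by −log10 q (exact permutation p = 0.2). It was 8.47 with the 50 kb limit (exact permutation p = 0.3) and 8.06 with every annotated gene (exact permutation p = 0.2). Whether replicate numbers pair the samples was not settled. Same-numbered deviations correlated by 0.0324, 0.161 and -0.127 for RNA and by 0.0306, -0.00386 and 0.0969 for ATAC. Differently numbered ones ran from -0.199 to 0.126 for RNA and from -0.0683 to 0.0247 for ATAC. With the replicate block the rank difference was 7.32 with an exact p of 0.25, the smallest that 3 pairs allow, and nearest genes called went from 7 to 9. Called nearest genes were 71 by DESeq2, 76 with no filter on low counts, 11 over genes within 100 kb of a member, and 2 to 80 without 1 RNA library; the cause was not tested. The median CPM of nearest genes, 33.3, was 50.9 when expressed meant at least 10 CPM, since fewer low genes then count. ATAC depth is unknown, so a region missing from a list may be a shallow library's miss.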

Other observations

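At 1 locus, chosen after its values were seen, members were assigned to another gene than the best-known one beside them. Between Myc and Cyrib, 5 members occurred. The first lay 116 kb downstream of Myc. The other 4 lay 1626 to 1688 kb from it, between chr15:63616832 and chr15:63679393, and were assigned to Cyrib, 249.7 to 311 kb away. An enhancer cluster active in blood stem cells is known in this distant flank of Myc, which encodes a growth-promoting transcription factor. The strongest of the 4 had folds of 15.0, 13.9 and 17.8 in Control and 21.0, 21.0 and 24.2 in 6bKO (median rank 95.2). Myc RNA was 330, 690 and 525 CPM in Control against 271, 417 and 283 in Kdm6b-KO, which overlapped (edgeR adjusted p = 0.279).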
